A study of Mus musculus with 2 samples.

Results

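The mouse genome holds a large group of zinc finger genes that carry a serial number in place of a descriptive name, and their expression was described in mouse extraembryonic endoderm stem (XEN) cells given an LNA (locked nucleic acid) directed at Gata6-AS. Genes were taken when their symbol was Zfp followed by a number, with or without a letter, and when their mean level over both libraries reached 1 RPKM. RPKM is the read number divided by gene length in kilobases and by library size in units of 1000000 reads. The rule gave 258 of the 362 numbered Zfp genes in the table and 258 of the 10854 genes of any name at that level. The members were thus chosen by their measured mean RPKM, and their level is a description. Zfp945, with 1.03 RPKM after Gata6-AS LNA and 1.03 RPKM after control LNA, and Zfp354a, with 1.07 RPKM after Gata6-AS LNA and 1.002 RPKM after control LNA, stood just above the limit. Zfp608, with 0.954 RPKM after Gata6-AS LNA and 1.02 RPKM after control LNA, stood just under it. The other 104 numbered Zfp genes were under 1 RPKM, and 12 of these were listed at 0 in both libraries.

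Most numbered Zfp genes encode proteins with tandem C2H2 zinc fingers, small zinc-holding folds that each read a few bases of DNA. Many of them also begin with a KRAB domain, which recruits the scaffold protein Trim28 and, through it, the histone methyltransferase Setdb1 and heterochromatin proteins. KRAB zinc finger genes arose by local duplication and stand in clusters, and many of their proteins bind transposable elements or imprinted loci. Other genes with a Zfp number are RNA-binding, ribosome-associated or ubiquitin ligase proteins that share only the presence of a zinc-binding fold.

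The study sequenced total RNA of PS10 XEN cells, a female line of strain ICR, in 2 groups of 1 library each: Gata6-AS LNA and control LNA. Both groups come from the same line, and both reagents were delivered by lipid transfection. The titles say siRNA and the protocol says locked nucleic acid. XEN cells are a self-renewing culture model of the primitive endoderm, and Gata6, its leading transcription factor, neighbours the antisense transcript that was targeted. With 1 library per group, no difference was tested, a counting interval covers counting error only, and treatment and library cannot be told apart.

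Gata6-AS, listed as 1010001N08Rik, had 5.83 RPKM in the Gata6-AS LNA library and 10.1 RPKM in the control LNA library. Gata6 had 55.7 RPKM after Gata6-AS LNA and 81.9 RPKM after control LNA. The RPKM values correspond to 1.229e+08 reads for Gata6-AS LNA and 1.036e+08 reads for control LNA. Of 10 XEN markers, 9 were above 1 RPKM, and the summed level of all 10 was 3065 RPKM after Gata6-AS LNA and 4023 RPKM after control LNA, with 7 of the 9 lower and 2 higher in the Gata6-AS LNA library. Sparc and Lama1 were the largest parts of that sum, with 1689 and 828 RPKM after Gata6-AS LNA, against 2104 and 1125 RPKM after control LNA. Col4a1 was the marker under 1 RPKM. Of 8 pluripotent cell markers only Nanog passed 1 RPKM, Pou5f1 had 0.0541 RPKM after Gata6-AS LNA and 0.0556 RPKM after control LNA, and Sox2 and Esrrb were at 0. The 6 fibroblast markers summed to 0.0150 RPKM after Gata6-AS LNA and 0.00541 RPKM after control LNA. Of 6 trophoblast markers 5 were listed, and they summed to 1.64 RPKM after Gata6-AS LNA and 0.984 RPKM after control LNA. Cdx2 was the largest part, with 1.19 RPKM after Gata6-AS LNA and 0.653 RPKM after control LNA. In bulk RNA, fewer cells of a type and less RNA per cell cannot be told apart, and the part of the XEN marker shift in the Zfp values was not tested.

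Promoters are shown for Zfp365 and Zfp426, the members at both ends of the differences, and for 6 members with a Zfp143 element match. These 6 were all the matches among the promoters of 211 members, and a match is not a measured site. Each is 1 promoter of the gene from the RefSeq table of assembly GRCm38.p6, 250 bases before to 50 after the start, on the strand of the gene. Capitals mark ACTACAATT, a core of the element bound by Zfp143, or CCGGAAG, the core of the element bound by ETS factors, on either strand. Zfp692 (chr11:58306819-58307118, plus strand), Zfp58 (chr13:67500473-67500772, minus strand) and Zfp1 (chr8:111643193-111643492, plus strand) hold the Zfp143 element. It also stands in Zfp933 (chr4:147848369-147848668, minus strand), Zfp111 (chr7:24208100-24208399, minus strand) and Zfp180 (chr7:24081647-24081946, plus strand), the last with the ETS core as well. Zfp426 (chr9:20492697-20492996, minus strand) holds the ETS core, and Zfp365 (chr10:67912613-67912912, minus strand) holds neither.
Zfp692: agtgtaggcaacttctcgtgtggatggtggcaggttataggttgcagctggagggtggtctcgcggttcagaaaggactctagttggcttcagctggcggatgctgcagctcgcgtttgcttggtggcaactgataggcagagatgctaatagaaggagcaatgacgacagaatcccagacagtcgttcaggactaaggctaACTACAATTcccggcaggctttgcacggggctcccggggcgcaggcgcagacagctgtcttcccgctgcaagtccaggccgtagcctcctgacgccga
Zfp58: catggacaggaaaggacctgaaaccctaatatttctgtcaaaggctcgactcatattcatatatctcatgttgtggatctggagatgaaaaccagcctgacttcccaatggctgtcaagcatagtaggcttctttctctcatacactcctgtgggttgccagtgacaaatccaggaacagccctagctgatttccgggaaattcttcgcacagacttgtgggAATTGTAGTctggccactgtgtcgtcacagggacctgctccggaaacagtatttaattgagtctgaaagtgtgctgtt
Zfp1: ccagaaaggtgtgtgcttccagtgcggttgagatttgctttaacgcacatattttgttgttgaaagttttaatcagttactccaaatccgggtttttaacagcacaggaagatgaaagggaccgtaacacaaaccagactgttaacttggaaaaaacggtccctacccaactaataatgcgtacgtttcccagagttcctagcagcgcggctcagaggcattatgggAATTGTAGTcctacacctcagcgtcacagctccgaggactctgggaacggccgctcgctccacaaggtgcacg
Zfp933: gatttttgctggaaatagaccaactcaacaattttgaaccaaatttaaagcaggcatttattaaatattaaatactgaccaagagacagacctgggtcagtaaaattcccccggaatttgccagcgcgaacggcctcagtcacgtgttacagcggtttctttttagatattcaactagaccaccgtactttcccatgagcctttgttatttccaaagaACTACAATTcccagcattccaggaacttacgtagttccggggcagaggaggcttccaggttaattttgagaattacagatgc
Zfp111: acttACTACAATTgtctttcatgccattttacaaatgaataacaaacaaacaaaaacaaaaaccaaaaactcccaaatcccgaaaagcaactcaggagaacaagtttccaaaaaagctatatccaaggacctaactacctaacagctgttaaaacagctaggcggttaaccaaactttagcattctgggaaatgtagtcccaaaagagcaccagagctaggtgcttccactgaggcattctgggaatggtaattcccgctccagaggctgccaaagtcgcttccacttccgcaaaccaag
Zfp180: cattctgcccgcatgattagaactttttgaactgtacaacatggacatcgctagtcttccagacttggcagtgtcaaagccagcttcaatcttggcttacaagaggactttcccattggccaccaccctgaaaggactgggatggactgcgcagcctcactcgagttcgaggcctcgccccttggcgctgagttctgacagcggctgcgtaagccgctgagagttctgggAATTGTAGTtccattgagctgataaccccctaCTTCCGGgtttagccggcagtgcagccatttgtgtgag
Zfp426: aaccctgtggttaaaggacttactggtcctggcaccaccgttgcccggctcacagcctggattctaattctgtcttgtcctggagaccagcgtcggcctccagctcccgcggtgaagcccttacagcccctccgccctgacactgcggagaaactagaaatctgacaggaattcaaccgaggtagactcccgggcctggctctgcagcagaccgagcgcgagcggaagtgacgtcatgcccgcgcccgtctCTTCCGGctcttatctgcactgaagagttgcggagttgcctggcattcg
Zfp365: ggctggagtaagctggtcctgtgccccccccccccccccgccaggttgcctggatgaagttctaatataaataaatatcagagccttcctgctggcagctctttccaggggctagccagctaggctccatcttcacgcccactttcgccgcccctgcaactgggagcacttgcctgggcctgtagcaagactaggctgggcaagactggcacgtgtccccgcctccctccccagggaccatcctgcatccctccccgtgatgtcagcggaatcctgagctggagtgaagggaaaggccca

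The 258 members centred close to the rest of the expressed genes. Their median difference in log2(RPKM + 1), Gata6-AS LNA minus control LNA, was 0.041, and that of the 10596 other expressed genes was 0.048. With the median of all expressed genes set to 0 the members' median was -0.0071, and any list median between 0 and 0.048 likewise changes sign. Of the members, 151 were above 0 and 107 below; above 0 were 58.5% of members and 58.0% of all expressed genes, of which 42.0% were below. Expressed in percent of the control LNA level, the members' interquartile range was 93.5% to 116%, and 118 members were within 90% to 110%. The members' share above the control LNA level was thus close to that of all expressed genes.

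Counts past a limit of size were small. At least 1.5-fold higher after Gata6-AS LNA, on the RPKM + 1 scale, were 6 members (2.33% of them), against 3.43% of all expressed genes. None of the members was at least 1.5-fold lower, against 1.94% of all expressed genes. The count was 1 with a smaller added value, with centring on all expressed genes or with scaling to equal sums. In either direction the background share was 5.37%. Past 2-fold stood none of the members, against 0.332% higher, 0.451% lower and 0.783% either way of all expressed genes. In plain RPKM, without the added 1, the members Zfp365 and Zfp341 were over 200% of control LNA and none was under 50%. Zfp341 was under 1 RPKM after control LNA and passed the minimum level only through the Gata6-AS LNA library, as did 7 other members. Zfp846 passed only through the control LNA library.

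Most members were low genes: 172 of 258 had a mean under 5 RPKM, and only Zfp330 and Zfp706 had a mean over 20. Between 1 and 2 RPKM the interquartile range of 67 members was 0.18 on the log2(RPKM + 1) scale, against 0.29 for 1227 other genes. Between 2 and 5 RPKM it was 0.24 for 105 members and 0.31 for 2487 other genes, and between 5 and 10 RPKM 0.25 for 56 members and 0.35 for 2459 others. The members were narrower in each of these bins. Between 10 and 20 RPKM it was 0.35 for 28 members and 0.34 for 2061 other genes, so the narrower spread was not seen there. Weighted to the members' mix of levels, the interquartile range was 0.24 for members and 0.32 for other genes, and the medians were 0.035 for members and 0.059 for other genes.

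**Figure D1:**
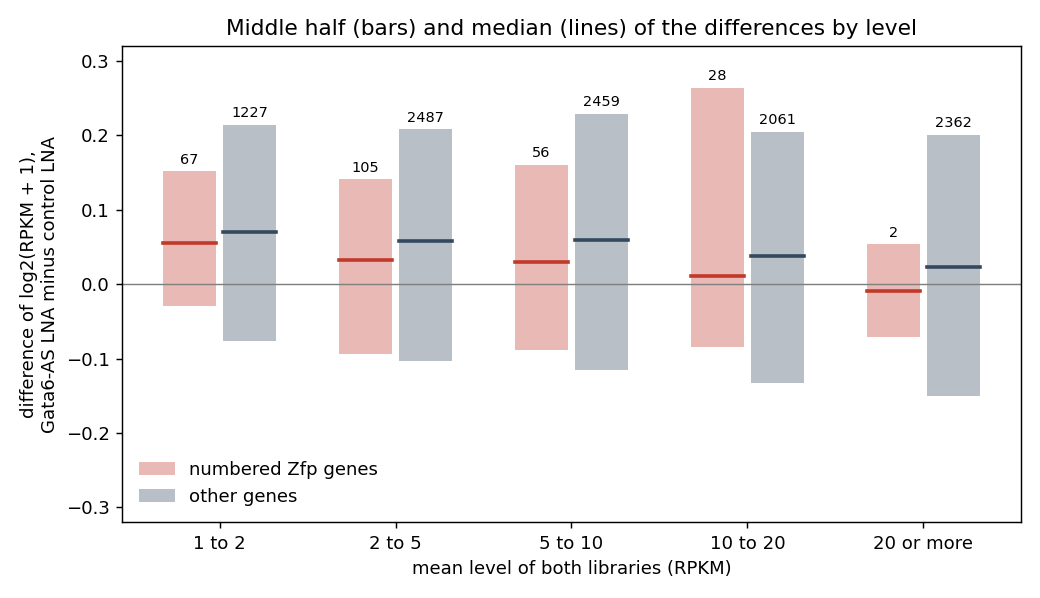
Difference in log2(RPKM + 1), Gata6-AS LNA minus control LNA, by the mean level of both libraries in RPKM, for numbered Zfp genes and other expressed genes; bars span the interquartile range and lines mark the median. From 1 to 10 RPKM the Zfp bars are shorter than those of other genes, and from 10 to 20 RPKM they are of like length (0.35 and 0.34).

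The 6 members past 1.5-fold were Zfp365, Zfp692, Zfp13, Zfp498, Zfp341 and Zfp219. Zfp365, whose human counterpart is known for a role in genome stability at fragile sites, had 3.30 RPKM after Gata6-AS LNA and 1.44 RPKM after control LNA, which is 229% of control LNA with an exact 95% counting interval of 211% to 249%. Zfp341, whose human counterpart drives transcription of STAT3, had 1.59 RPKM after Gata6-AS LNA and 0.708 RPKM after control LNA, or 224% (193% to 261%). These were the members with the highest ratio, and both were low in the control LNA library.

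Zfp692, whose promoter holds the Zfp143 element, had 9.95 RPKM after Gata6-AS LNA and 5.71 RPKM after control LNA, or 174% (163% to 187%). Zfp13, a KRAB zinc finger gene, had 5.29 RPKM after Gata6-AS LNA and 2.98 RPKM after control LNA, or 177% (162% to 193%). Zfp498, now named Zscan25 in RefSeq, had 4.38 RPKM after Gata6-AS LNA and 2.44 RPKM after control LNA, or 180% (145% to 224%). In all 5 members so far the counting interval lay above 100%. Zfp219, a partner of Sox9 in cartilage, had 15.9 RPKM after Gata6-AS LNA and 10.3 RPKM after control LNA, or 155% (149% to 162%). It overlaps Arhgef40 on the opposite strand, and as the counting step and its use of strand are not described, reads of both genes cannot be told apart.

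The next 6 members on the higher side ran from Zfp688 (9.14 RPKM after Gata6-AS LNA, 6.17 RPKM after control LNA) to Zfp1 (5.57 RPKM after Gata6-AS LNA and 4.10 RPKM after control LNA), with log2(RPKM + 1) differences of 0.50 to 0.37. Among them Zfp511 had 12.4 RPKM after Gata6-AS LNA and 8.93 RPKM after control LNA. They include Zfp259, now named Zpr1, a protein first known for binding growth factor receptors, with 9.70 RPKM after Gata6-AS LNA and 7.03 RPKM after control LNA. They also include Zfp58, with 3.02 RPKM after Gata6-AS LNA and 2.12 RPKM after control LNA, which overlaps its neighbour Zfp87 on the same strand, so that its reads may be shared. Of the 12 members with the most positive differences, 4 hold a KRAB pattern.

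On the lower side Zfp426 came first, with 1.77 RPKM after Gata6-AS LNA and 3.13 RPKM after control LNA, which is 56.6% of control LNA (exact 95% counting interval 52.3% to 61.2%). This KRAB gene overlaps Gm17523 on the opposite strand. Zfp148, a factor that binds GC-rich promoter elements, had 6.77 RPKM after Gata6-AS LNA and 9.503 RPKM after control LNA, or 71.2% (69.1% to 73.4%). Both counting intervals lay below 100%. Zfp238, now named Zbtb18, a repressor needed in brain development, had 2.18 RPKM after Gata6-AS LNA and 3.25 RPKM after control LNA. Zfp703 and Zfp704, related corepressors outside the KRAB family, stood at 2.07 and 3.05 RPKM after Gata6-AS LNA, against 2.94 and 4.03 RPKM after control LNA. Zfp703 was at 70.3% (64.1% to 77.2%) of control LNA. Zfp704 overlaps C030034L19Rik on the opposite strand, so its reads may include those of that gene.

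Among the 12 most negative members were also Zfp949, Zfp445, Zfp948, Zfp617, Zfp62, Zfp622 and Zfp295, the last with 5.86 RPKM after Gata6-AS LNA and 7.35 RPKM after control LNA. Zfp948 was the highest KRAB gene among them, with 13.4 RPKM after Gata6-AS LNA and 17.6 RPKM after control LNA, or 76.1% (73.0% to 79.3%). KRAB patterns were found in 5 of the 12. Zfp617 shares 40.8% of its 50-base transcript stretches with other genes and overlaps Ccnb2-ps on the opposite strand, and its value is uncertain for these reasons.

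**Figure D2:**
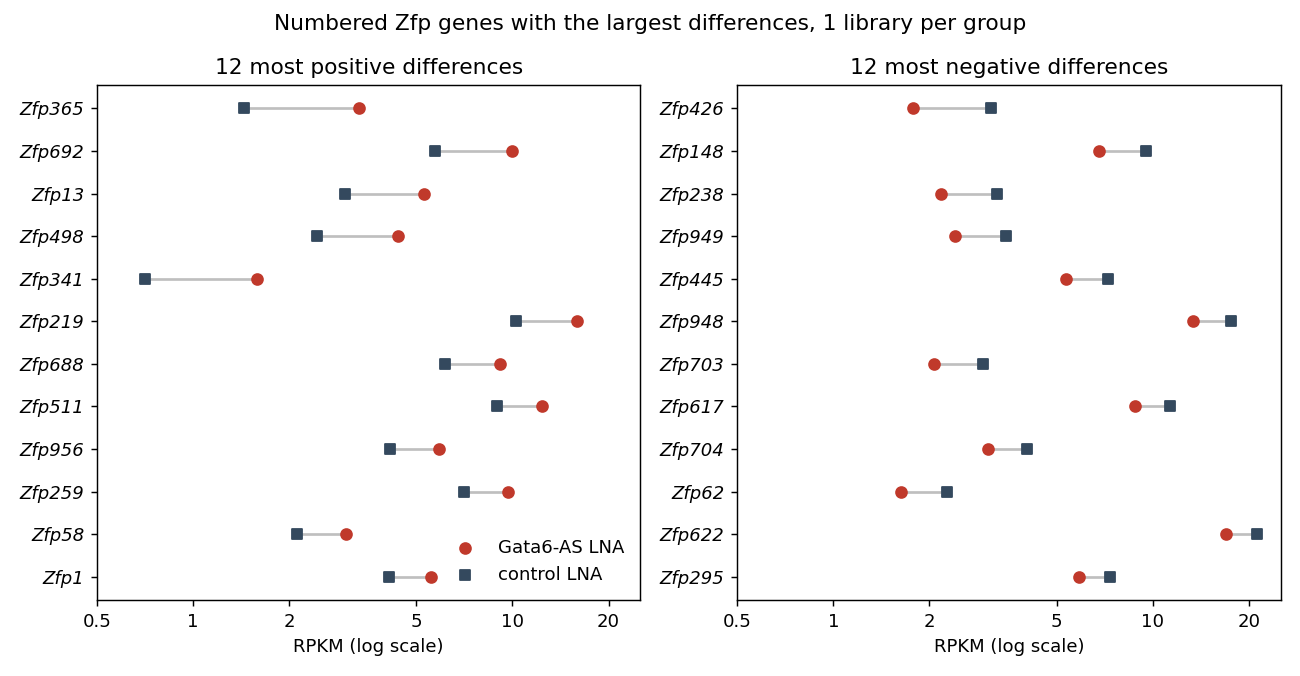
RPKM (log axis) in the Gata6-AS LNA library (circles) and the control LNA library (squares) for the 12 highest and 12 lowest members by difference. The gap is widest for Zfp365 (3.30 RPKM after Gata6-AS LNA and 1.44 RPKM after control LNA) on the higher side and for Zfp426 (1.77 RPKM after Gata6-AS LNA and 3.13 RPKM after control LNA) on the lower side.

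In the authors' deposited table, which lists 2099 genes that they selected, 12 members appear, 7 as higher (background 6.24% of expressed genes) and 5 as lower (background 5.69%). That is 4.65% of the members, against 11.9% of all expressed genes. The authors' deposited table gives Zfp365 a log2 difference of 1.09 with p = 0.00456, Zfp341 one of 1.02 with p = 0.00951 and Zfp426 one of -0.92 with p = 0.0134. These p-values are the authors' and rest on 1 library per group, by a method not described in the sources used here. The other members listed as higher there are Zfp692, Zfp13, Zfp498, Zfp219 and Zfp688, and those listed as lower are Zfp148, Zfp238, Zfp949 and Zfp703. The largest of the authors' p-values among the 12 members was 0.0699, for Zfp703, so the selection was a loose one.

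KRAB zinc finger genes with a known silencing role were measured at moderate levels. Zfp57, which keeps DNA methylation at imprinted loci, had 12.01 RPKM after Gata6-AS LNA and 9.28 RPKM after control LNA, or 129% of control LNA (124% to 135%). Zfp445, which shares that task, had 5.37 RPKM after Gata6-AS LNA and 7.25 RPKM after control LNA, or 74.1% (69.7% to 78.8%). These genes thus stood on opposite sides of their control LNA level. Zfp809, which silences murine leukaemia proviruses through their primer binding site, had 10.5 RPKM after Gata6-AS LNA and 10.6 RPKM after control LNA, or 99.6% (92.7% to 107%). Zfp568, which represses a placental Igf2 promoter and is needed for extraembryonic development, had 10.1 RPKM after Gata6-AS LNA and 9.11 RPKM after control LNA, or 111% (107% to 114%).

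Zfp932 and Zfp708, both known to bind endogenous retroviral elements, had 7.44 and 1.59 RPKM after Gata6-AS LNA, against 6.76 and 1.31 RPKM after control LNA. Zfp932 shares 45.2% of its 50-base stretches with other genes. Zfp708 stands on a further row of the table with 1.23 RPKM after Gata6-AS LNA and 1.04 RPKM after control LNA, with the same sign. Of these 6 genes 4 were higher after Gata6-AS LNA, close to the 58.0% of all expressed genes above 0, and Zfp445 and Zfp809 were lower.

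The cofactors that KRAB proteins recruit stood on both sides of control LNA. Of 24 listed genes of the KRAB corepressor machinery, Zfp57 included, 22 were above 1 RPKM, with a median difference of 0.017 on the log2(RPKM + 1) scale, 12 higher and 10 lower. Trim28 had 64.4 RPKM after Gata6-AS LNA and 60.4 RPKM after control LNA. Setdb1 had 7.17 RPKM after Gata6-AS LNA and 6.33 RPKM after control LNA. The heterochromatin proteins Cbx1, Cbx3 and Cbx5 had 15.7, 41.5 and 19.1 RPKM after Gata6-AS LNA, against 18.4, 45.1 and 23.3 RPKM after control LNA. These recruited proteins thus stood slightly above and slightly below control LNA. Past 1.5-fold stood 1 of the 22 on the higher side (background 3.43%), the hemimethylated DNA reader Uhrf1, with 41.8 RPKM after Gata6-AS LNA and 25.9 RPKM after control LNA. Dnmt3b, a de novo DNA methyltransferase, had 9.75 RPKM after Gata6-AS LNA and 6.45 RPKM after control LNA, or 151% (145% to 158%), and stayed under the limit through the added 1. Dnmt1, which copies DNA methylation at replication, had 37.1 RPKM after Gata6-AS LNA and 31.5 RPKM after control LNA, or 118% (116% to 120%), and the histone chaperone Daxx was at 118%. None was past 1.5-fold on the lower side.

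DNA-binding activators and developmental regulators made up a further set. Zfp143, an activator of many housekeeping promoters, had 9.28 RPKM in both the Gata6-AS LNA and the control LNA library. Zfp281, a regulator of pluripotent and epiblast cells, had 6.39 RPKM after Gata6-AS LNA and 6.99 RPKM after control LNA. Zfp161, now named Zbtb14, had 2.39 RPKM after Gata6-AS LNA and 2.90 RPKM after control LNA. Of these factors Zfp143 was the closest to its control LNA level. Zfp217, a corepressor known from human breast cancer, had 5.88 RPKM after Gata6-AS LNA and 6.01 RPKM after control LNA. Zfp423, a partner of Smad and Ebf factors in fat cell precursors, had 1.86 RPKM after Gata6-AS LNA and 1.605 RPKM after control LNA. Zfp516, an activator of brown fat genes, had 9.07 RPKM after Gata6-AS LNA and 8.23 RPKM after control LNA.

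Other members are known for work outside DNA binding, and Zfp622, Zfp598 and Zfp106 of these were among the 10 members with the highest means. Zfp622, a factor in large ribosomal subunit maturation, had 16.9 RPKM after Gata6-AS LNA and 21.2 RPKM after control LNA, and was at 79.9% of control LNA. Zfp598, the ubiquitin ligase that marks collided ribosomes, had 17.3 RPKM after Gata6-AS LNA and 19.0 RPKM after control LNA. Zfp207, a spindle and kinetochore protein, had 13.6 RPKM after Gata6-AS LNA and 15.03 RPKM after control LNA. All 3 were lower after Gata6-AS LNA, by less than 1.5-fold. Zfp385a, an RNA-binding protein, had 10.6 RPKM after Gata6-AS LNA and 8.10 RPKM after control LNA, or 131% (124% to 138%). Zfp36, which speeds decay of AU-rich messages, had 7.17 RPKM after Gata6-AS LNA and 6.23 RPKM after control LNA. The RNA-binding Zfp106, which overlaps Gm17675 on the opposite strand, had 18.9 RPKM after Gata6-AS LNA and 16.3 RPKM after control LNA. Zfp326, which couples elongation to splicing, had 2.66 RPKM after Gata6-AS LNA and 3.24 RPKM after control LNA.

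By the mean of both libraries the highest member was Zfp330, with 26.7 RPKM after Gata6-AS LNA and 24.6 RPKM after control LNA. Next by that mean was Zfp706, known in mouse embryonic stem cells for a part in leaving self-renewal, with 20.003 RPKM after Gata6-AS LNA and 22.0 RPKM after control LNA. Zfp97 and Zfp960 followed, with 22.0 and 21.6 RPKM after Gata6-AS LNA, against 17.5 and 17.7 RPKM after control LNA, and were above Zfp706 in the Gata6-AS LNA library. These KRAB genes share 81.3% and 82.7% of their 50-base stretches with other genes, so their values cannot be assigned to each gene with certainty.

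Over a list of 47 Zfp genes with known roles, 46 of which are in the table under that symbol, 41 were above 1 RPKM. Their median difference was -0.0045 on the log2(RPKM + 1) scale, against 0.048 for all expressed genes, with 18 higher and 23 lower. Of the 41, 21 were within 90% to 110% of control LNA, 12 were above and 8 below. The pluripotency gene Zfp42, known as Rex1, had 0.00452 RPKM after Gata6-AS LNA and 0.0107 RPKM after control LNA. Zfp503 was listed at 0 in both libraries, and Zfp296, Zfp521 and Zfp819 were under 1 RPKM.

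**Figure D3:**
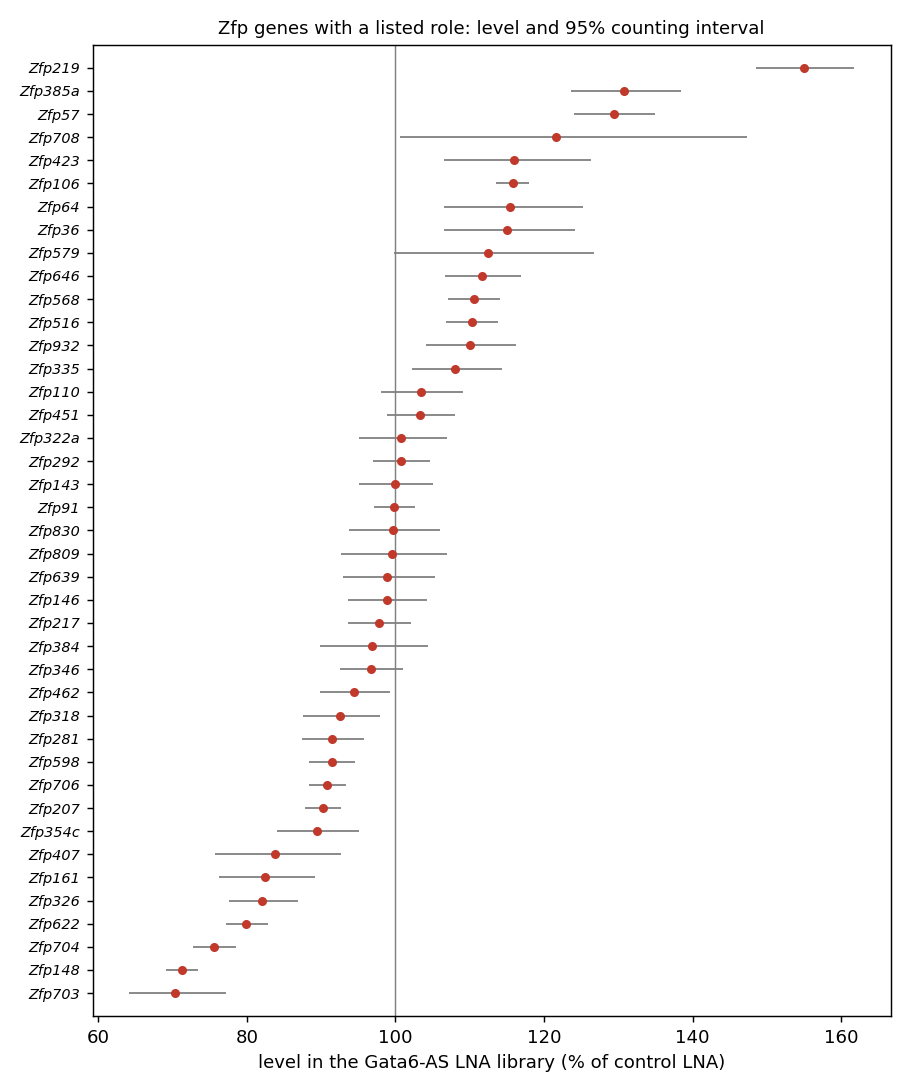
Level in the Gata6-AS LNA library as a percentage of the control LNA library, with its exact 95% counting interval, for the expressed Zfp genes with a listed role. Zfp219 stands farthest to the right at 155%, Zfp703 and Zfp148 farthest to the left at 70.3% and 71.2%, and 21 of the 41 genes lie within 90% to 110%.

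Many members stand in genomic clusters, taken here as runs of at least 3 numbered Zfp genes with neighbouring starts at most 250 kb apart. There were 25 clusters with 165 numbered Zfp genes, of which 116 were members. Their median difference was 0.041, and that of the 142 members outside clusters was 0.043. Past 1.5-fold on the higher side were 6 of the 142 outside clusters (4.23%) and 0 of the 116 inside, against 3.43% of all expressed genes, and the difference between these shares was not tested. Of the 18 clusters with at least 3 members, 12 had a median above 0 and 6 below, and 13 held members on both sides of 0. The median of all expressed genes, 0.048, was also above 0.

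The cluster with most members lies at chr13:67139530-67927937 of mm9 and holds 19 numbered Zfp genes, 14 of them members and all 14 with a KRAB pattern. Its members were low, with a median of 1.97 RPKM after Gata6-AS LNA and 1.88 RPKM after control LNA. Higher after Gata6-AS LNA were 12, and lower were Zfp738, with 1.502 RPKM after Gata6-AS LNA and 1.64 RPKM after control LNA, and Zfp874a, with 2.08 RPKM after Gata6-AS LNA and 2.14 RPKM after control LNA. Of all expressed genes, 58.0% were above 0. The median difference was 0.089, against 0.048 for all expressed genes, and the range -0.08 to 0.37. The highest members were Zfp429 (5.44 RPKM after Gata6-AS LNA, 4.67 RPKM after control LNA), Zfp459 (4.96 RPKM after Gata6-AS LNA and 4.19 RPKM after control LNA), Zfp87 (4.11 RPKM after Gata6-AS LNA and 4.08 RPKM after control LNA) and Zfp874b (3.65 RPKM after Gata6-AS LNA and 3.42 RPKM after control LNA). Zfp58 had the largest difference, 0.37, followed by Zfp273 with 1.87 RPKM after Gata6-AS LNA and 1.37 RPKM after control LNA. Zfp953 and Zfp456 overlap on the same strand, as do Zfp58 and Zfp87, so their values may share reads. The remaining members, Zfp708, Zfp759, Zfp455, Zfp953, Zfp456 and Zfp748, had differences of 0.012 to 0.17. The 5 other expressed genes inside the run, among them the related Rsl1, had a median of 0.0051.

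The cluster at chr17:21520712-22593656 of mm9 holds 15 numbered Zfp genes with 13 members, all with a KRAB pattern. Of these, 11 were higher after Gata6-AS LNA, against 58.0% of all expressed genes. The median difference was 0.14, against 0.048 for all expressed genes. The 4 other expressed genes inside the run had a median of 0.091, with 3 of them above 0. Zfp52 had 3.28 RPKM after Gata6-AS LNA and 2.37 RPKM after control LNA. Zfp677 had 1.52 RPKM after Gata6-AS LNA and 0.990 RPKM after control LNA, and passed the minimum level only through the Gata6-AS LNA library. Zfp53 had 4.45 RPKM after Gata6-AS LNA and 3.42 RPKM after control LNA. These were the members with the largest positive differences there. Zfp948, the highest gene of the cluster, was lower with a difference of -0.37, and so was Zfp946, with 1.59 RPKM after Gata6-AS LNA and 1.70 RPKM after control LNA. The summed level of all 15 numbered Zfp genes of the cluster, Zfp948 included, was 51.0 RPKM after Gata6-AS LNA and 50.3 RPKM after control LNA. Zfp51, Zfp760, Zfp820, Zfp942, Zfp943, Zfp947, Zfp944 and Zfp758 lay between 0.0023 and 0.22.

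The cluster at chr7:30553571-30954746 of mm9 holds 14 numbered Zfp genes with 13 members, 10 of them with a KRAB pattern, and no other expressed gene. Of the members 8 were higher and 5 lower after Gata6-AS LNA, with a median of 0.055. All expressed genes had 58.0% above 0 and a median of 0.048. The highest were Zfp146, with 11.4 RPKM after Gata6-AS LNA and 11.5 RPKM after control LNA, Zfp568, and Zfp260, with 6.93 RPKM after Gata6-AS LNA and 7.58 RPKM after control LNA. Zfp940 had the most positive difference, with 1.69 RPKM after Gata6-AS LNA and 1.23 RPKM after control LNA, and Zfp790 the most negative, with 1.44 RPKM after Gata6-AS LNA and 1.73 RPKM after control LNA. The cluster thus spanned both directions over short distances. Zfp84, Zfp30, Zfp420, Zfp27, Zfp74, Zfp82, Zfp566 and Zfp382 lay between these, with differences of -0.10 to 0.21. Zfp27 and Zfp420 overlap each other on opposite strands, so their reads cannot be told apart.

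Of the 18 clusters, 3 had all members above 0 and 2 had all below. At chr7:4866819-5005324 of mm9, all 5 members (Zfp628, Zfp579, Zfp524, Zfp865 and Zfp580, none with a KRAB pattern) were higher after Gata6-AS LNA, with a median of 0.14. The share of all expressed genes above 0 was 58.0%. Zfp628, at 0.045, was under the median of all expressed genes, and the counting intervals of Zfp628 (89.3% to 124%), Zfp579 (99.8% to 127%) and Zfp524 (81.0% to 159%) included 100%. The largest difference was that of Zfp580, with 5.44 RPKM after Gata6-AS LNA and 4.05 RPKM after control LNA. At chr9:20149580-20399638 of mm9 all 4 members were lower: Zfp426, Zfp26 (1.99 RPKM after Gata6-AS LNA, 2.33 RPKM after control LNA), Zfp266 (5.34 RPKM after Gata6-AS LNA and 5.70 RPKM after control LNA) and Zfp846 (0.989 RPKM after Gata6-AS LNA and 1.19 RPKM after control LNA). Their median was -0.15, and Zfp846 passed the minimum level only through the control LNA library. Zfp426, Zfp26 and Zfp266 all overlap Gm17523 on the opposite strand, which had a difference of -0.19, so these values may hold reads of that gene. On the 6 chromosomes with at least 15 members, those higher after Gata6-AS LNA were 36 of 52 on chromosome 7, 23 of 39 on chromosome 17, 18 of 24 on chromosome 13, 8 of 17 on chromosome 5, 8 of 17 on chromosome 8 and 4 of 15 on chromosome 9, against 58.0% of all expressed genes.

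**Figure D4:**
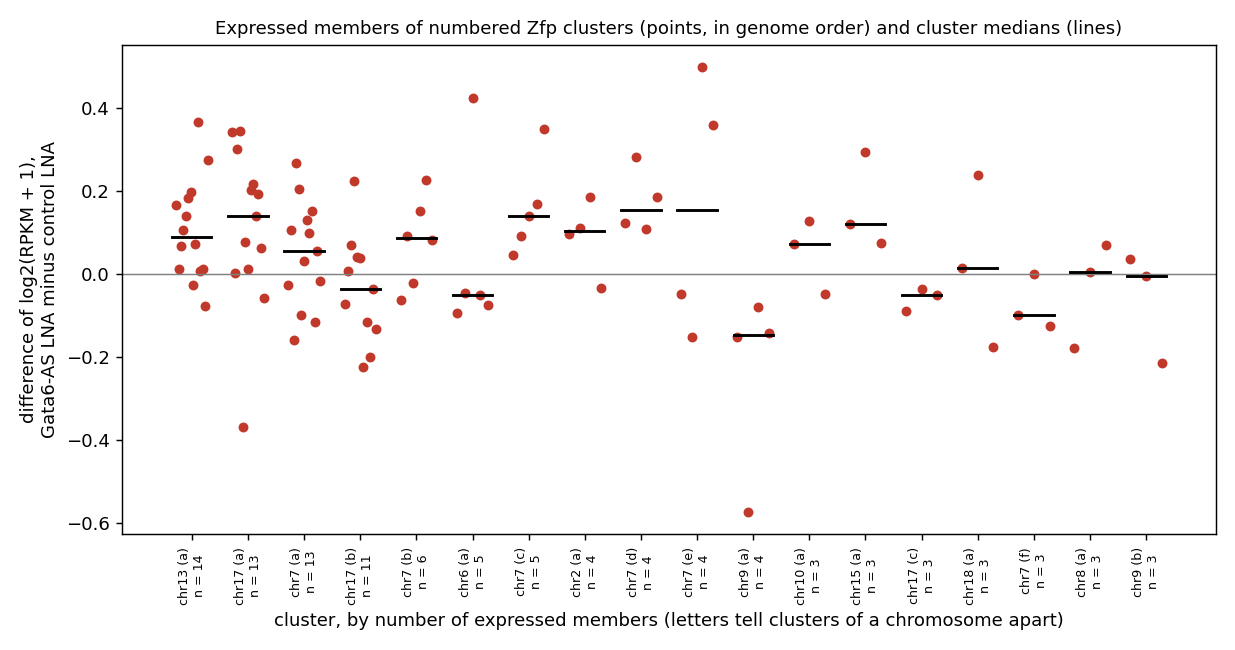
Difference in log2(RPKM + 1), Gata6-AS LNA minus control LNA, of the members (points, in genome order) of the 18 clusters with at least 3 members, with the cluster median (line). The chromosome 13 cluster with 14 members has 12 points above 0, and the chromosome 9 cluster that holds Zfp426 has all 4 of its points below 0.

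What the members share beyond their name was read from transcripts and promoters. In the open reading frames of the GENCODE vM21 transcripts of 257 members, the C2H2 finger count ran from 0 to 36 with a median of 10. A C2H2 pattern was missing in 8: Zfp36, Zfp703, Zfp330, Zfp259, Zfp365, Zfp781, Zfp839 and Zfp185. For these the numbered name does not stand for a C2H2 protein by that pattern. A KRAB pattern was found in 127 members. Their median difference was 0.065, with 82 higher and 45 lower after Gata6-AS LNA. The 130 members without it had a median of 0.018, with 69 higher and 61 lower. No match was found in Zfp192 and Zfp167, which RefSeq names Zkscan8 and Zkscan7. Members without the pattern may thus include KRAB genes that it misses. Above 0 were 64.6% and 53.1% of these groups, against 58.0% of all expressed genes. KRAB members were also lower in level, with a median of 2.68 RPKM against 4.63 RPKM. The part of level in the gap between the median differences was not tested. In clusters the median differences were close, 0.041 for 89 KRAB members and 0.036 for 27 members without the pattern. Outside clusters they were 0.098 for 38 KRAB members and 0.017 for 103 members without it. With at least 10 fingers the median was 0.050 (131 members) and with fewer 0.039 (126 members).

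Related genes can share reads. Of the members, 113 shared no 50-base transcript stretch with a gene elsewhere and 23 shared at least 20% of theirs. The extreme was Zfp781, with 96.3% shared, followed by Zfp600 with 83.3%. The 23 had a median difference of 0.065, with 14 higher and 9 lower after Gata6-AS LNA. An expressed gene on the other strand overlapped 25 members, with a median of 0.033.

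RefSeq promoters were matched for 211 members. Their median GC content was 55%, against 61.7% for 7357 other expressed genes and 52.7% for all 27025 promoters. A median of 14 CpG dinucleotides stood in 300 bases, against 22 for other expressed genes and 7 for all promoters. Motifs were searched on both strands. The ETS core CCGGAAG occurred in 21.3% of member promoters, 20.1% of other expressed and 9.12% of all promoters. The GC box GGGGCGGGG occurred in 11.4% of member promoters, 23.8% of other expressed and 11.6% of all promoters. The NRF1 element GCGCATGCG was in 4.27%, 4.16% and 1.81% of the same sets, and the YY1 element AAGATGGCG in 3.32%, 3.59% and 1.49%. Member promoters were thus between the sets in GC and CpG content, and held the GC box as often as promoters at large.

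The Zfp143 element ACTACAATT occurred in 2.84% of member promoters, 0.870% of other expressed and 0.433% of all promoters. The 6 members that hold it are Zfp692, Zfp58, Zfp1, Zfp933, Zfp111 and Zfp180. Of these, 4 were higher after Gata6-AS LNA, against 58.0% of all expressed genes. Among the 12 most positive of the 258 members were 3 of them, Zfp692, Zfp58 and Zfp1. Zfp933 had 1.497 RPKM after Gata6-AS LNA and 1.32 RPKM after control LNA. Zfp111 had 1.51 RPKM after Gata6-AS LNA and 1.55 RPKM after control LNA. Zfp180 had 7.02 RPKM after Gata6-AS LNA and 7.38 RPKM after control LNA. A match describes letters in a window and is not a measured site, and these members were singled out after their values were seen.

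Other zinc finger and Trim genes gave a scale for these values. The 27 expressed Zbtb genes had a median difference of 0.013 on the log2(RPKM + 1) scale, with 14 higher and 13 lower after Gata6-AS LNA, and 2 of them were at least 1.5-fold lower (background 1.94%). The 13 Zscan and Zkscan genes had a median of 0.12, with 1 at least 1.5-fold higher (background 3.43%), and the 26 Trim genes 0.12, with none past 1.5-fold. The 11 Klf genes had -0.15, with 3 higher and 8 lower, with 2 past 1.5-fold on each side. The 11 Zc3h genes had a median of 0.11. The numbered Zfp genes, at 0.041, lay inside the range of these families. Some members, such as Zfp238 (Zbtb18) and Zfp498 (Zscan25), belong to these families by their RefSeq names.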

How the data were processed

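Total RNA of PS10 XEN cells was sequenced after Gata6-AS LNA or control LNA, 1 library each, grouped by the sample titles. The authors deposited a table of RPKM values with gene coordinates, per the file headers, and a table of selected genes; in it the authors give each library's log2 value, a log2 difference and a p-value. TopHat and mm9 are named in the submitters' processing notes. The counting tool, annotation, use of strand, treatment of multiply mapped reads and versions are not given in sources used here.

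From the RPKM, differences of log2(RPKM + 1) were taken as Gata6-AS LNA minus control LNA over genes averaging 1 RPKM or more, 1 row per symbol (the row with the higher mean; Zfp708 and Zfp319 stand on 2 rows). Depth was read from genes under 3000 bp whose RPKM values are whole multiples of what 1 read is worth, found in 884 genes for Gata6-AS LNA and 828 for control LNA, within a relative tolerance of 3e-07 plus 0.0002 reads. The least whole numbers of reads behind both RPKM values of a gene gave the exact (Clopper-Pearson) 95% interval of their ratio, which is never narrower than one from the true counts. They ran from 80 to 25659 reads over the members in the Gata6-AS LNA library and from 64 to 18671 in the control LNA library. PCR duplicates are not known, so intervals cover counting error only.

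The members and gene lists were chosen with earlier results of these data known. Genes were named by rule: the 12 most positive and 12 most negative differences, the 10 highest means, those nearest 1 RPKM, a role list, and the 3 clusters with most members. KRAB and C2H2 patterns were to be read from RefSeq proteins, which were not used here. They were read from the open reading frames of GENCODE vM21 transcripts instead, a step added after the data were seen. A RefSeq table of GRCm38.p6 gave promoters and names, matching 247 members by symbol and 10 by synonym. The NRF1, YY1 and Zfp143 motifs were shortened after a first search with longer forms, with results known. Transcripts were compared in stretches of 50 bases with genes elsewhere. The steps for depth, least reads and log2 differences were tested on simulated data, and the other steps were not. Tools were Python 3.11.15, numpy 2.4.6, pandas 2.3.3, scipy 1.17.1, Biopython 1.88 and matplotlib 3.10.9. Alternatives were the added 1 in the log2 values, the minimum level, the scaling, the gap that joins clusters, and leaving out members that share sequence or overlap another gene.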

Additional observations from a re-analysis of the deposited data

How the results depend on the processing

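With 1 library per group no result has a replicate check, no library can be left out, and differences within the spread of repeat cultures cannot be seen. No paired analysis was possible because each group has 1 library. Of 92 recomputed values, 82 stayed within the limits set. These limits were 95% intervals over genes for medians and shares, and a ratio of at most 1.5 for the other values. For the KRAB gap the interval was that of the KRAB members' median alone, moved to the gap. For the gap to other genes at the same level it was that of the members' median alone. The spread of the genes compared with was left out of both. Setting the median of all expressed genes to 0 could not change the KRAB gap or the gap to other genes at the same level. It could not change the ratio of interquartile ranges either, so the count does not measure how firm the results are. With the median of all expressed genes set to 0, a shift of 0.048, the members' median turned to -0.0071, their share above 0 to 49.2%, and 1 member was 1.5-fold lower. With 0.1 added in place of 1, 2 members were 2-fold higher and 1 was 1.5-fold lower. With 0.5 added 1 was 1.5-fold lower, and with each library scaled to 1000000 summed RPKM 1 was 2-fold higher and 1 was 1.5-fold lower. With a mean of at least 5 RPKM, 2 members in place of 6 were 1.5-fold higher, and the KRAB gap was 0.087 in place of 0.047. The reasons for these moves were not tested. The members' interquartile range, as a ratio to that of other genes at the same level, was 0.749 and 0.739 to 0.856 under the alternatives. The median of the chromosome 13 cluster, 0.089, was 0.041 to 0.15 under the settings that keep its limits, with no value at the 5 RPKM minimum, where 1 member was left. With starts at most 100 kb apart the cluster with most members was that of chromosome 7 (13 members, median 0.055), and at most 1000 kb apart one on chromosome 17 (17 members, median 0.107).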
